A study of Mus musculus with 30 samples.

Results

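The 8 genes described here are expressed by club cells, the non-ciliated secretory cells of the small airways. They were chosen by name: Scgb1a1, Scgb3a1, Scgb3a2, Cyp2f2, Cyp4b1, Cbr2, Aldh1a1 and Gsta3, of 15965 genes with a single symbol on the arrays. They had 9 probe sets of 36899, taken where the annotation gave exactly 1 of these symbols, with 7 probe sets on the A arrays and 2 on the B arrays. Of the 9, 8 exceeded the detection floor on at least 2 arrays and were tested with 25801 probe sets in all. In a series on vascular remodelling in pulmonary hypertension, whole mouse lung RNA was hybridised to 3 types of Affymetrix MG-U74 version 2 oligonucleotide array (A, B and C). The groups were Norm, as the titles call the baseline, and lungs of animals exposed to 10% oxygen in a chamber during 10 h, 2 d, 4 d and 6 d. Each group had 2 samples, 1a and 1b. The description of the Norm samples mentions cellular rejection, a transplantation term absent from the titles, and the titles were followed. The labels give no strain, age or sex, and do not say whether 1a and 1b were separate animals, so that the spread behind every p-value is that of the sample pairs and may be technical only.

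Club cells line the bronchioles, secrete small proteins of the secretoglobin family into the airway fluid, and renew themselves and the ciliated cells after injury. They are also the main site of xenobiotic metabolism in the mouse lung: cytochromes P450 oxidise inhaled compounds, reductases and dehydrogenases act on carbonyls and aldehydes, and glutathione transferases conjugate the reactive products. Secretoglobin 1a1 is the classical marker of these cells, and Cyp2f2, which activates naphthalene, makes them sensitive to that toxicant.

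The data came from 29 arrays. An array titled Norm 1a of type A stands in the table of the B arrays, had Spearman correlations between -0.00277 and 0.00963 with those arrays, and was left out. The A arrays therefore hold 1 Norm array, 1b, and each A comparison with Norm takes the spread of the other groups as its own. The A array labelled Norm 1b correlated better with the B and C arrays labelled 4 d 1a (r = 0.16 over 1303 genes and 0.153 over 1322 genes, each gene centred over the samples) than with those of its own label (0.0178 and 0.0253). The A array labelled 4 d 1a did not match the B and C arrays labelled Norm 1b (-0.0209 and -0.0258). Other A arrays too correlated better with another label, such as 6 d 1b with the B array labelled 2 d 1b (0.103, against 0.0409 for its own). The labels were kept. The 2 d and 6 d samples are numbered in the series as 1 block, apart from all other groups. The labels do not say whether that block was handled apart, and its part cannot be told apart from that of exposure time. Trimmed mean intensities lay between 800.16 and 800.44. Gapdh control probe sets, which read RNA integrity, had a 3′ signal over 5′ signal of 4.277 and 3.967 on the 2 d A arrays, 1.684 and 1.462 on the 6 d A arrays, and between 0.9087 and 1.306 on the other A arrays. Sftpc and Sftpb of alveolar type 2 cells, Ager of type 1 cells and Foxj1 of ciliated cells were above the floor on 9 of 9 A arrays, while Krt5 of basal cells and Muc5ac of goblet cells were above it on 0 of 9. Tekt1, also of ciliated cells, was above it on 2 of 9, and Pecam1 of endothelium on 8 of 9.

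Of the club cell genes, Cyp2f2 was the one whose change passed the test. At 2 d in low oxygen its intensity was 4.09-fold lower than on the single A array of Norm, where 1.86% of all probe sets were called. The call did not hold in 10 of its 18 alternatives. The 2 d A arrays also had the highest Gapdh 3′ to 5′ ratios, 4.277 and 3.967, whose part was not tested. At 6 d the Cyp2f2 arrays lay within the range of the 4 d arrays. Scgb1a1 had its highest intensities at 2 d and 6 d, but its differences from Norm did not pass. Cyp4b1, Aldh1a1, Gsta3, Scgb3a2 and Cbr2 had no difference from Norm that passed at any time, and Scgb3a1 lay below the floor on every B array. In whole lung, fewer club cells and less RNA per club cell cannot be told apart.

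**Figure D1:**
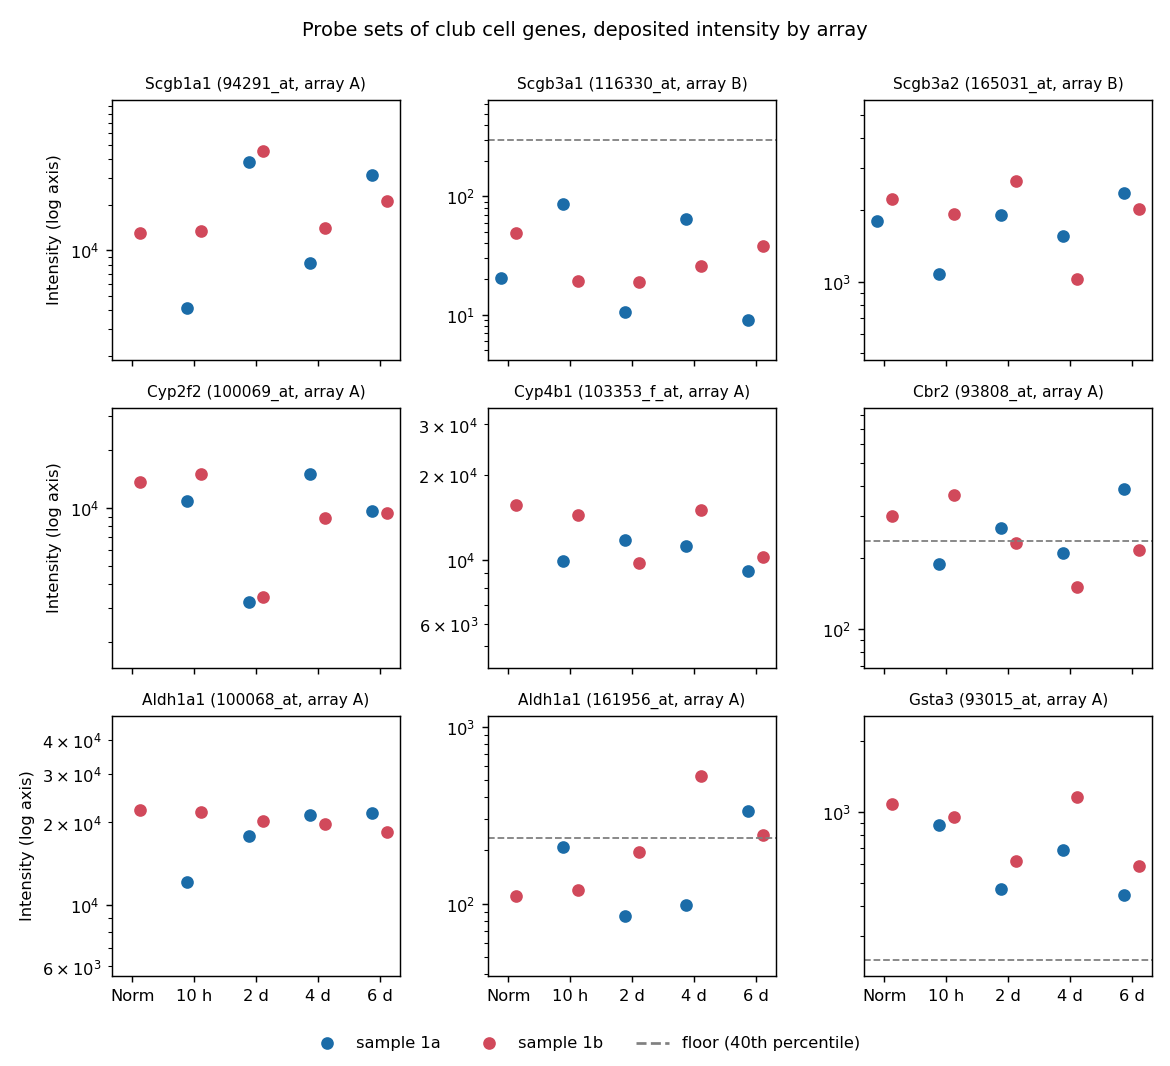
Deposited intensity (log axis) of the 9 probe sets on each array, by group from Norm to 6 d; points are single arrays, blue for sample 1a and red for sample 1b, and the dashed line is the floor. The 2 d arrays of Cyp2f2 lie at 3212 and 3418, below its 7 other A arrays, and the 2 d arrays of Scgb1a1 lie at 38291 and 45063, above its 7 other A arrays.

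Promoter sequences are shown for the genes with the largest negative differences at 2 d, Cyp2f2, which passed, and Gsta3, which did not. Both are the 250 bases before the annotated start, from RefSeq on GRCm38.p6, plus strand, at chr7:27119705-27119954 for Cyp2f2 and chr1:21240335-21240584 for Gsta3. Capitals mark matches, on either strand, to the core motif CAAGTG of NKX2-1, the factor of lung epithelium, to TGACNNNGC, the core of the antioxidant response element, and to TTGCNNAA, a C/EBP motif.
Cyp2f2: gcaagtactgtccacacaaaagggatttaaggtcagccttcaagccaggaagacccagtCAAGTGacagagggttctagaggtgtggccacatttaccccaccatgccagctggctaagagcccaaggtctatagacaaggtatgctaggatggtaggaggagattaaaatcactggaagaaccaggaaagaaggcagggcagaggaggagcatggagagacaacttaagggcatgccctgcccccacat
Gsta3: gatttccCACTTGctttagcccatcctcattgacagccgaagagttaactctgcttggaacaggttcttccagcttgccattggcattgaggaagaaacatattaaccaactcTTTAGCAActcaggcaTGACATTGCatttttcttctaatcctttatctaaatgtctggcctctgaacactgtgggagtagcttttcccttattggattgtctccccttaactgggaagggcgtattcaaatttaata
Counted back from the start, with the last base of the window at -1, the Cyp2f2 window holds CAAGTG at -191. The Gsta3 window holds the reverse form CACTTG at -243, a C/EBP match on the minus strand at -137 and the antioxidant core at -121, and no match overlaps another. Windows of 6 of the 8 genes were searched, 7 windows in all, and none of Scgb1a1 or Scgb3a2. CAAGTG on either strand also occurred in the Scgb3a1 window and in 1 of the Aldh1a1 windows, and no window of Cyp4b1 or Cbr2 held it. A C/EBP match also stood at -13 in an Aldh1a1 window, while the forkhead core TGTTTAC and TATAAA were in none of the 7. Of 32851 promoter windows of the same length, 11.6% held the NKX2-1 core, 10.2% the antioxidant core, 9.56% the C/EBP motif, 3.17% the forkhead core and 12.4% TATAAA, both strands counted. These matches are descriptions of the letters and not sites.

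The secreted proteins come first. Scgb1a1 (94291_at, A array), the club cell secretory protein, had an intensity of 12923 in Norm, 4110 and 13291 at 10 h, 38291 and 45063 at 2 d, 8273 and 13924 at 4 d, and 31684 and 21279 at 6 d. The 2 d and 6 d arrays were all above the arrays of Norm, 10 h and 4 d, and the 2 d arrays were above the 6 d arrays. From lowest to highest, the mean log2 intensity was 12.85 ± 1.20 at 10 h, 13.39 ± 0.53 at 4 d, 13.66 in Norm (1 array), 14.66 ± 0.41 at 6 d and 15.34 ± 0.17 at 2 d (SD, n = 2). The 3 lowest groups did not differ beyond the spread at 10 h. At 2 d the log2 difference from Norm was 1.68 ± 0.64 (SE), or 3.21-fold, with an adjusted p of 0.204 by limma with Benjamini-Hochberg adjustment, against a background of 1.86% of all probe sets called in that comparison. At 6 d it was 1.01 ± 0.64 with an adjusted p of 0.703, where 0% of all probe sets were called, and 6 d minus 2 d was -0.68 ± 0.52 with an adjusted p of 0.666. Quantile normalization moved the 2 d difference to 1.08 and the 6 d minus 2 d difference to -0.07, the second being -0.39 without the 6 d sample 1b.

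The 10 h difference of Scgb1a1 from Norm was -0.81 ± 0.64 (limma, adjusted p = 0.931) and rested on 1 array. Without the 10 h sample 1a it was 0.04, and without 1b it was -1.65. That array also had the lowest intensity of the 3′ beta-actin control on the A arrays, 860, against 8498 on the other 10 h array. Its 5′ beta-actin control was 9979, against 16426 on the other, and its Gapdh 3′ to 5′ ratio was 0.9087, against 1.111.

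The 3′ beta-actin control moved with Scgb1a1 over the A arrays. Its intensity was 11258 in Norm, 860 and 8498 at 10 h, 28462 and 32015 at 2 d, 10663 and 7859 at 4 d, and 29090 and 15893 at 6 d. As for Scgb1a1, the 2 d and 6 d arrays were above all the others. These are also the samples numbered as a block of their own. On the B and C arrays the control also differed between the Norm samples, at 14883 and 32393 for 1b against 842 and 4650 for 1a. The brightest signal on an A array was 40213 and 45948 at 2 d and 14170 on the 10 h array of sample 1a. The parts of RNA quality and of that block in the Scgb1a1 levels were not tested.

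**Figure D2:**
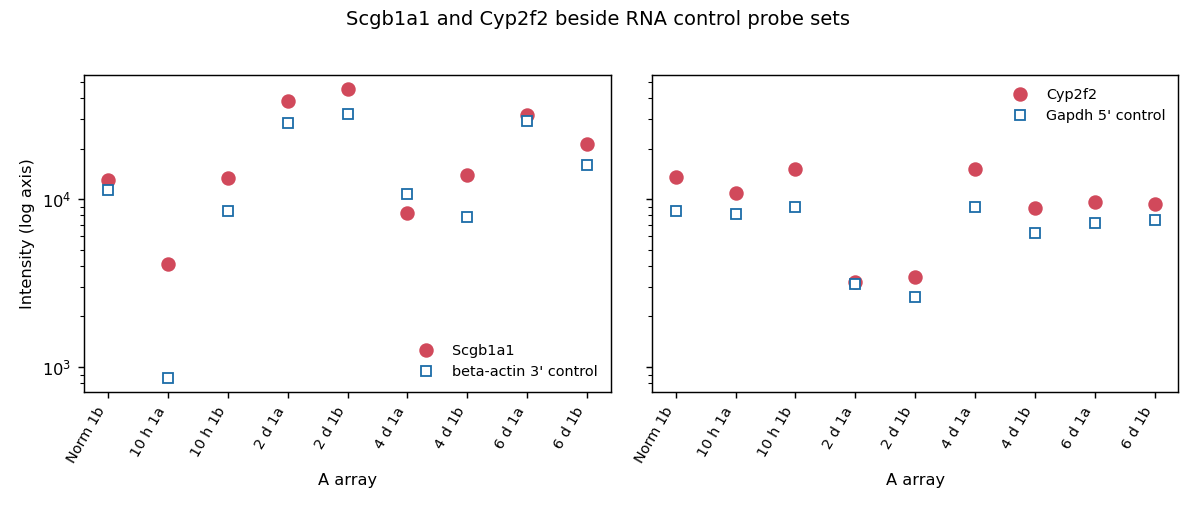
Intensity (log axis) on the 9 A arrays of Scgb1a1 with the 3′ beta-actin control probe set (left) and of Cyp2f2 with the 5′ Gapdh control probe set (right), filled circles for the gene and open squares for the control. Scgb1a1 and 3′ beta-actin are highest on the 2 d and 6 d arrays, and Cyp2f2 and 5′ Gapdh are lowest on the 2 d arrays, at 3212 and 3418 for Cyp2f2.

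Scgb3a2 (165031_at, B array), a secretoglobin of the airway lining, was measured with both Norm samples. Its intensity was 1806 and 2233 in Norm, 1082 and 1930 at 10 h, 1898 and 2645 at 2 d, 1555 and 1029 at 4 d, and 2357 and 2018 at 6 d. Both 4 d arrays lay below both Norm arrays, while the other groups overlapped Norm. Its highest array was 2.57 times its lowest. The 4 d difference from Norm was -0.67 ± 0.31 (limma, adjusted p = 0.829), and 0.00775% of all probe sets were called at 4 d. Without the 4 d sample 1b it was -0.37. At 10 h the difference was -0.47 ± 0.31 (limma, adjusted p = 0.910), which was -0.06 without the 10 h sample 1a and -0.89 without 1b.

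Scgb3a1 (116330_at, B array), a related secretoglobin of the larger airways, was below the floor of 297.4 on all 10 B arrays, with intensities between 9.1 and 85.6 and a median of 23.2. It was not tested, and it has only an upper bound in every group.

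The enzymes of oxidation and reduction follow. Cyp2f2 (100069_at, A array), the P450 that activates naphthalene in the mouse lung, had an intensity of 13539 in Norm, 10836 and 15062 at 10 h, 3212 and 3418 at 2 d, 15023 and 8857 at 4 d, and 9599 and 9338 at 6 d. The 2 d arrays agreed closely and lay below every other A array, whereas the 10 h, 4 d and 6 d arrays lay between 8857 and 15062. The mean log2 intensity was 11.69 ± 0.06 at 2 d, then 13.21 ± 0.03 at 6 d, 13.49 ± 0.54 at 4 d, 13.64 ± 0.34 at 10 h and 13.72 in Norm (SD, n = 2, 1 array in Norm). Only the lowest step, between 2 d and 6 d, exceeded the spread of the arrays beside it. Cyp2f2 fell by 2.03 ± 0.33 on the log2 scale at 2 d against Norm (limma, Benjamini-Hochberg adjusted p = 0.0298), and was 1 of 8 tested probe sets of club cell genes to pass, where 1.86% of all probe sets were called and 1.09% were called lower.

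This call was near the threshold and, like every A comparison with Norm, rested on the single A array labelled Norm 1b. The difference was between -2.08 and -1.99 in the 18 alternatives that could test it, but 10 of them did not pass. Among these 10 were those without either sample of 10 h, 2 d or 6 d. Most alternatives could not move the difference. Other floors, filters, variance settings and adjustments, and samples left out of groups other than 2 d, all gave -2.03. Without the 2 d sample 1a it was -1.99, and without 1b -2.08. The Norm 1b array could not be left out, so the narrow range does not cover its part. The 5′ Gapdh control on the same arrays was 3103 and 2612 at 2 d, 7191 and 7482 at 6 d, and between 6301 and 9023 on the others. It was lowest on the arrays where Cyp2f2 was lowest, and the part of RNA quality in the Cyp2f2 difference was not tested.

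Cyp2f2 at 6 d was 1.51 ± 0.27 above its 2 d level on the log2 scale, or 2.86-fold, and did not pass (limma, adjusted p = 0.0848), where 0.062% of all probe sets were called. Its 6 d difference from Norm was -0.52 ± 0.33 with an adjusted p of 0.707 by limma. Over the 4 hypoxia times together it was -0.72 ± 0.29 from Norm (limma, adjusted p = 0.611), where 0% of all probe sets were called. Late minus early, the mean of 4 d and 6 d minus that of 10 h and 2 d, was 0.68 ± 0.19 (limma, adjusted p = 0.288), where 0.0155% were called.

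Cyp4b1 (103353_f_at, A array) is a P450 abundant in lung that oxidises fatty acids and activates several protoxicants. Its intensity was 15597 in Norm, 9951 and 14456 at 10 h, 11821 and 9756 at 2 d, 11236 and 15031 at 4 d, and 9206 and 10280 at 6 d. All 8 hypoxia arrays lay below the single Norm array. The 6 d arrays were also below both 4 d arrays, and the other hypoxia groups overlapped. The range was narrow, the highest array being 1.69 times the lowest. The log2 difference from Norm was -0.54 ± 0.31 at 2 d, -0.68 ± 0.31 at 6 d and -0.47 ± 0.27 over the 4 times together (limma, adjusted p = 0.403, 0.574 and 0.742). The suffix of this probe set marks probes that other transcripts may share, so that the value may include them.

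Aldh1a1, which oxidises retinaldehyde to retinoic acid and detoxifies aldehydes, had 2 probe sets on the A arrays. With 100068_at the intensity was 22164 in Norm, 12161 and 21852 at 10 h, 17913 and 20166 at 2 d, 21238 and 19794 at 4 d, and 21663 and 18406 at 6 d. The 10 h array of sample 1a was the lowest, and the 7 other hypoxia arrays lay between 17913 and 21852. Over the 4 times together the log2 difference from Norm was -0.23 ± 0.33 (limma, adjusted p = 0.897), and it was -0.35 with quantile normalization and -0.13 without the 10 h sample 1a. The second probe set, 161956_at, was above the floor of 236 on 3 of 9 arrays and had intensities between 85.5 and 523. Its arrays at Norm, 10 h and 2 d were all below the floor, so it gives no difference between those groups.

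Cbr2 (93808_at, A array), a carbonyl reductase of the mouse lung, was near the floor. Its intensity was 299 in Norm, 188 and 367 at 10 h, 268 and 232 at 2 d, 209 and 151 at 4 d, and 389 and 215 at 6 d. It was above the floor on 4 of 9 arrays and on neither 4 d array, so that its 4 d level has only an upper bound, at least 1.27-fold below the single Norm array (limma, adjusted p = 0.911).

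Gsta3 (93015_at, A array) is an alpha class glutathione transferase that conjugates reactive electrophiles. Its intensity was 1082 in Norm, 882 and 951 at 10 h, 471 and 620 at 2 d, 691 and 1156 at 4 d, and 444 and 591 at 6 d. The 2 d and 6 d arrays were all below those of Norm, 10 h and 4 d, and overlapped each other. The mean log2 intensity was 9.0 ± 0.29 at 6 d, 9.08 ± 0.28 at 2 d, 9.80 ± 0.52 at 4 d, 9.84 ± 0.08 at 10 h and 10.08 in Norm. The log2 difference from Norm was -1.0 ± 0.38 at 2 d and -1.08 ± 0.38 at 6 d, or about 2-fold and 2.11-fold lower, and did not pass (limma, adjusted p = 0.201 and 0.429). The 2 d and 6 d arrays are those with the higher Gapdh 3′ to 5′ ratios, 1.462 to 4.277 on A, and those numbered as a block. The part of either in these levels was not tested.

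**Figure D3:**
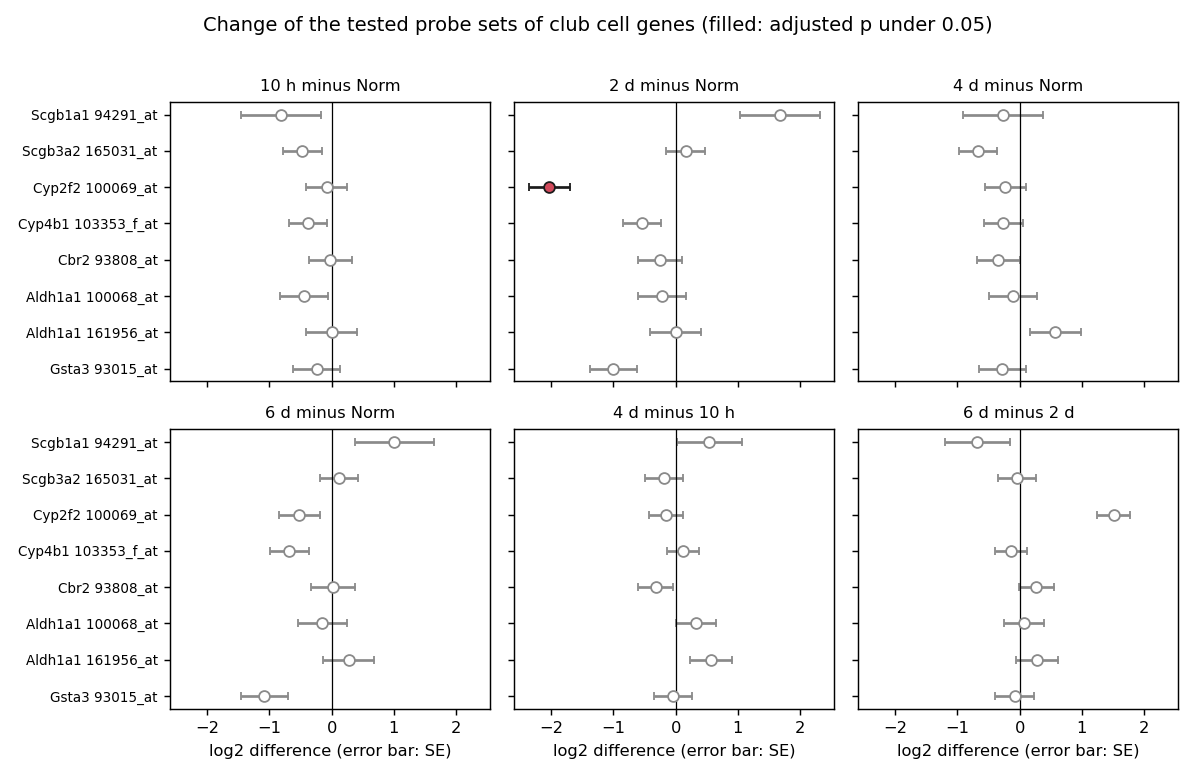
Log2 difference of the 8 tested probe sets in 6 comparisons, each titled with the group on top first; bars are the SE of the limma fit and the filled point passed at an adjusted p under 0.05. Cyp2f2 at 2 d minus Norm (-2.03) is the filled point, and Scgb1a1 (1.68) lies on the other side of 0 in that comparison.

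The 8 tested probe sets are counted here by direction. The 4 comparisons with Norm share the Norm arrays. At 10 h, 0 of the 8 differences from Norm were above 0 and 7 below, with a median of -0.31. That median was -0.01 without the 10 h sample 1a. At 2 d, 2 were above and 5 below (median -0.24), at 4 d 1 and 7 (median -0.27), and at 6 d 4 and 4 (median -0.07). The 1 above at 4 d, and 1 of the 4 above at 6 d, was the dim Aldh1a1 probe set 161956_at. That probe set was above the floor on 4 d and 6 d arrays alone, and so entered the test through them. The median over all probe sets was 0.00 in each of the 4 comparisons with Norm. The 2 d median was -0.50 with quantile normalization. The 4 d median was -0.11 without the 4 d sample 1a. The 6 d median was -0.30 without the 6 d sample 1a, 0.10 without the 6 d sample 1b, -0.25 with quantile normalization, -0.15 with median scaling and -0.33 over the 6 that exceeded the floor on 5 or more arrays. By gene, with 1 probe set for each of the 7 tested genes, 0 lay above 0 and 7 below at 4 d. At 6 d, 3 lay above 0 and 4 below, and 2 and 5 under both other scalings. The 6 d direction of the set is therefore not settled.

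The limma test called 0 of the 8 at 10 h, 4 d and 6 d. An unadjusted p under 0.05 was reached by 0 of them at 10 h and at 4 d and by 1 at 6 d, where 6.11%, 6.13% and 9.17% of all probe sets reached it. At 2 d, 3 reached it (Scgb1a1 higher, Cyp2f2 and Gsta3 lower), where 18.9% of all did. Between the hypoxia times, 0 of the 8 passed in 4 d minus 10 h, 6 d minus 2 d and late minus early, with 0, 1 and 1 at an unadjusted p under 0.05. Over all probe sets, 0.0233%, 0.062% and 0.0155% passed in these 3 comparisons, and 8.08%, 13% and 11% had an unadjusted p under 0.05. For the 4 hypoxia times together 0 of the 8 passed and 1, Cyp2f2, had an unadjusted p under 0.05, against 7.79% of all probe sets. For each member other than Cyp2f2, no alternative that was run gave an adjusted p under 0.05, the smallest being 0.0968 for Scgb1a1 at 2 d without the 10 h sample 1a.

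Other genes of xenobiotic metabolism had more members below Norm than above it at 2 d. Of 31 tested genes of oxidation and reduction, 9 had differences above 0 and 22 below (median -0.39), and 2 passed, both lower. On A, which holds 22 of the 31 genes, every difference is taken from the same single Norm array. The directions are therefore not independent of each other, and this holds for the A genes of every list below. Over all 13039 genes at 2 d, 6568 lay above 0 and 6230 below, and of all probe sets 1.86% were called and 1.09% called lower. Dcxr, a dicarbonyl and xylulose reductase, fell to 4067 and 3388 at 2 d, against 7131 and 8857 in Norm (log2 difference -1.10 ± 0.19, limma adjusted p = 0.0321). Aox3, an aldehyde oxidase, fell to 2053 and 2339 at 2 d, against 3979 and 5018 in Norm (-1.03 ± 0.16, limma adjusted p = 0.0212). For both genes every 2 d array lay below every Norm array. Both are on the B arrays, where the Gapdh 3′ to 5′ ratio was 4.6 and 3.639 at 2 d, against 0.9256 and 1.508 in Norm, and its part in these falls was not tested. At 6 d, 10 genes of this list lay above 0 and 20 below (median -0.16), and 0 passed by limma, with 4 at an unadjusted p under 0.05, which 9.17% of all probe sets reached.

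Of 22 tested genes of conjugation, 5 lay above 0 and 15 below at 2 d (median -0.23). At 6 d it was 3 and 18 (median -0.17). Of the 22 genes, 21 are on A and share its single Norm array. By limma 0 passed at either time, with 2 and 0 at an unadjusted p under 0.05, against 18.9% and 9.17% of all probe sets. Mgst3, a microsomal glutathione transferase, was the gene of this list that passed in any comparison, in 4 d minus 10 h, where 0.0233% of all probe sets were called. It fell to 605 and 522 at 4 d, against 1639 and 1858 at 10 h (log2 difference -1.64 ± 0.17, limma adjusted p = 0.0386). On the other A arrays it lay between 1347 and 1788, so that the 4 d arrays alone were low.

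Other secretory genes of the airway were balanced at 2 d, with 11 of 18 tested above 0 and 7 below (median 0.08). Of them 1 passed, lower, where 1.86% of all probe sets were called. Sec14l3, a lipid-binding protein of airway epithelium also on B, passed with 1 of its probe sets, at 3710 and 3002 at 2 d, against 6828 and 6573 in Norm (115934_at, -1.01 ± 0.21, limma adjusted p = 0.0474). Its other tested probe set, 162542_r_at, went the other way by 1.11 ± 0.27 and did not pass (limma, adjusted p = 0.0688), so that the gene has no settled direction. Muc5b, a gel-forming mucin, was above the floor on 10 of 10 C arrays, between 3879 and 9834.

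Of 24 transcription factors of airway and lung epithelium, 8 lay above 0 and 15 below at 2 d (median -0.14), and 1 passed each way, where 1.86% of all probe sets were called. Cebpd rose to 8193 and 7982 at 2 d, against 4010 on the Norm array (1.01 ± 0.20, limma adjusted p = 0.0458). At 10 h it was 10477 and 11603 on the A arrays, and at 4 d and 6 d it was between 3705 and 5312. Gata6 fell to 328 and 284 at 2 d, against 953 in Norm (104698_at, -1.64 ± 0.28, limma adjusted p = 0.0328), while its 2 other tested probe sets were at 0.08 and -0.38 and did not pass.

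**Figure D4:**
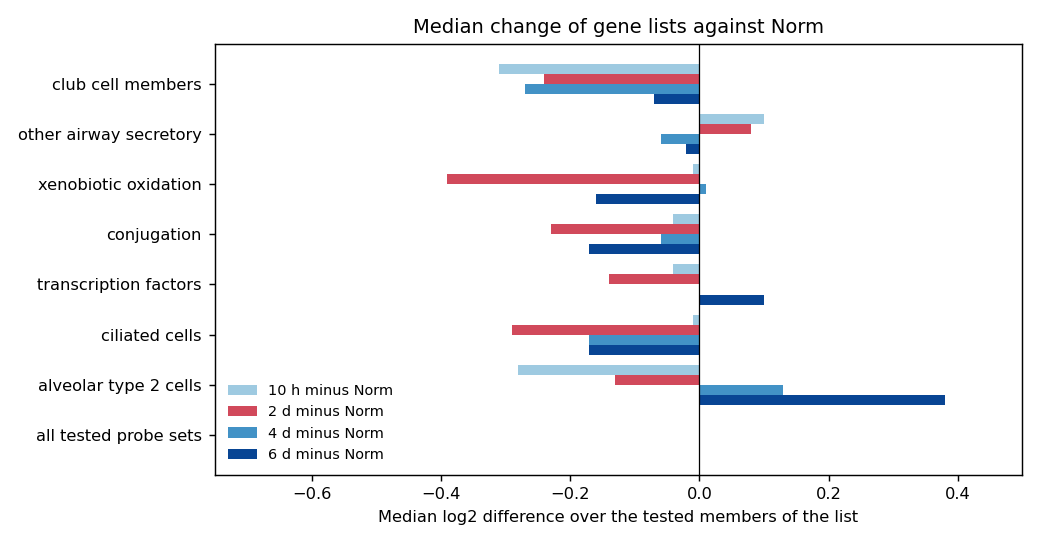
Median log2 difference from Norm over the tested members of the club cell genes and of 6 other gene lists, with all tested probe sets at the bottom, 1 bar for each time from 10 h to 6 d. The median of the genes of xenobiotic oxidation is lowest at 2 d (-0.39), and that of the alveolar type 2 genes is highest at 6 d (0.38).

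Markers of other lung cells at 2 d are given beside these values. At that time 1.86% of all probe sets were called, and 1.09% were called lower. Of 19 tested ciliated cell genes, 5 lay above 0 and 13 below (median -0.29), and 2 passed, both lower. Spag6l, of the central apparatus of cilia, was at 144 and 120 at 2 d, against 1296 and 1748 in Norm, with a log2 difference of -2.91 or lower because both 2 d arrays were below the floor (limma, adjusted p = 0.0203). Its other tested probe set was at -1.17 ± 0.24 and also passed (limma, adjusted p = 0.0496). Ak7, an adenylate kinase of cilia, fell by 1.57 ± 0.29 (limma, adjusted p = 0.0347), while its other tested probe set was at 0.31 and did not pass. Both genes are on the C arrays, where the Gapdh 3′ to 5′ ratio was 4.432 and 3.685 at 2 d, against 0.8148 and 1.333 in Norm. The summed intensity of the 9 ciliated genes on the C arrays was 7575 to 8407 at 2 d, against 13932 to 16543 in Norm, and that of the 5 on the A arrays was 6397 to 8867 at 2 d, against 7018 in Norm. For the 5 on the B arrays it was 3310 to 3640 at 2 d, against 3924 to 5030 in Norm. At 6 d the sum was 2899 to 3072 on B, below 2 d, and 9737 to 9783 on C, above 2 d.

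Of 20 alveolar type 2 genes, 8 lay above 0 and 12 below at 2 d (median -0.13), with 2 lower past the threshold, where 1.86% of all probe sets were called. These were Etv5, a transcription factor (-1.10, limma adjusted p = 0.0321), and Lyz1, a lysozyme (-2.34, limma adjusted p = 0.0212). At 6 d minus 2 d both passed as higher, Etv5 by 1.85 and Lyz1 by 4.21 (limma, adjusted p = 0.0254 and 0.0147), where 0.062% of all were called. Lyz1 also passed in late minus early (2.45, limma adjusted p = 0.024), where 0.0155% of all were called. The Lyz1 probe set, 139754_f_at, has the same suffix as that of Cyp4b1, so that its values may include other transcripts. The summed intensity of the 10 type 2 genes on A was 113358 to 128904 at 2 d, against 87394 in Norm, and over the 6 genes on C it was 112675 to 117283, against 138075 to 171618 in Norm. Over the 4 genes on B it was 34778 to 36463 at 2 d, against 32827 to 33421 in Norm. The sums of the same cell type thus differed in direction between array types. For the 6 club cell genes on A the sum was 71976 to 79255 at 2 d, against 65604 in Norm. In that sum Scgb1a1 alone contributed 38291 and 45063. Of 11 tested genes of basal, goblet and neuroendocrine cells, 7 lay above 0 and 4 below (median 0.03), and Ngfr passed, higher. Ngfr was at 426 and 473 at 2 d, and below the floor of 297.4 on every other B array, Norm included. It passed the filter through the 2 d arrays alone, and its Norm level has only an upper bound. Cardiac muscle genes, which mark pulmonary vein wall, had 0 of 11 above 0 and 11 below (median -0.94), with 4 past the threshold: Myl7 (-1.33), Tnni3 (-1.03), Myl4 (-1.38) and Csrp3 (-1.42 or lower, both 2 d arrays being below the floor). The other tested probe sets of Myl7, Myl4 and Csrp3 were at 0.39, 0.58 and 0.03 and did not pass. Skeletal muscle genes had 3 of 12 above 0 and 9 below (median -0.67), with Acta1 (-2.72) and Myh1 (-1.28 or lower, 1 of its 2 d arrays being below the floor) past the threshold. Acta1 also passed in 4 d minus 10 h, where 0.0233% of all were called. Its difference was 3.45 or more because both 10 h arrays were below the floor (limma, adjusted p = 0.0386). The sum over 11 skeletal muscle genes on A was 3373 to 3651 at 2 d, against 11139 on the single Norm array. At 10 h it was 1423 to 1850, at 4 d 5646 to 9693 and at 6 d 3544 to 3731, so that 2 d was not its lowest time. Genes of alveolar type 1 cells, endothelium, macrophages and cartilage had medians of -0.10, 0.22, 0.00 and 0.12, with 1 endothelial gene, Emcn, past the threshold (0.86, limma adjusted p = 0.049), whose other tested probe sets were at 0.00 and -0.27 and did not pass. The part of a changed mix of tissues in the club cell values was not tested.

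The genes most like the mean of the 6 club cell genes on A, by Pearson correlation of log2 intensity over 9 arrays, were Wfdc2 (0.902), Cadm1 (0.838), Retsat (0.826), Cd302 (0.826) and Nisch (0.817). Those most like Scgb1a1 alone were Rpl41 (0.977), Hba-a1 (0.959), Hba-ps3 (0.957), Vamp8 (0.955) and Eef1a1 (0.954). The 2 sets share no gene. On B, where Scgb3a2 was the tested member, Rprd1b (0.928), Dhx38 (0.9) and Sccpdh (0.898) came closest over 10 arrays. These arrays share their RNA samples, and within A the RNA integrity values given above, and the correlations are descriptions only.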

How the data were processed

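Whole lung RNA of 5 groups was measured on 3 array types. Per the files, the authors deposited linear intensities, one value for each probe set of an array. The summarising software is not given in the sources used here. Trimmed means, with 2.0% of values left out at each end, differed by under 5%, so no normalization was added. Symbols come from the platform annotation and may be old. The floor was the 40th percentile of the intensities of an array type: 236 for A, 297.4 for B, 200.9 for C. Lower values were raised to it before log2. Probe sets above it on at least 2 arrays were tested: 8392 on A, 8600 on B and 8809 on C. limma 3.58.1 in R 4.3.3 (lmFit, eBayes with trend) fitted all 5 groups of a type, with two-sided tests in 8 comparisons and Benjamini-Hochberg adjustment over the 3 types together (threshold 0.05). The procedure was tested on simulated data. The number of arrays limits the precision.

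The genes, lists and rules were chosen with earlier results of these data known. All member probe sets are named. A gene of another list is named where its representative probe set (a plain one first, then the brightest relative to its array type) passed in a comparison. Lists without such a gene are given by their medians. Muc5b, the defining markers and the member changes printed in full were chosen beside that rule, the last after their values were seen. Alternatives were other scalings, floors, filters, sample sets, adjustments, a replicate block, and each sample left out. The letters 1a and 1b were checked for pairing: the correlations of 1a minus 1b differences between groups lay between -0.158 and 0.134. These values show no strong shared pattern but cannot exclude a weak one, and A had no Norm pair to check. The main fit left the letters unpaired.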

Additional observations from a re-analysis of the deposited data

How the results depend on the processing

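The count of club cell probe sets past the threshold at 2 d against Norm, 1 in the values above, was 0 with no filter on dim probe sets, 0 with only the groups of the comparison, 0 with adjustment within each array type, and 0 with the replicate block. Leaving out 1 sample at a time gave 0 to 1. It was 0 without either sample of 10 h, 2 d or 6 d, and 1 without either sample of 4 d or without Norm 1a. Norm 1a has no A array in use, so leaving it out could change the members on A only through the adjustment over all probe sets. Without Norm 1b no Norm array of type A was left, so the members on A had no comparison with Norm. Under these 4 settings the adjusted p of Cyp2f2 was 0.106, 0.188, 0.0551 and, with the replicate block, 0.0577, and over its 18 alternatives it ran from 0.0135 to 0.188. In the 7 other comparisons the count was 0 under each alternative run. Over all probe sets, 480 passed at 2 d, against 217 with the replicate block, 0 with only the groups of the comparison, 319 without the variance trend, 733 with adjustment within each array type, and 16 to 448 with 1 sample left out. The one difference printed above that turned was that of Scgb1a1 at 10 h, to 0.04 without the 10 h sample 1a, against -1.65 without 1b. Of 1157 values of the 64 member differences, 53 turned sign, 0 of them past the threshold. The calls of other genes held in part: Aox3 in 14 of 19 alternatives, Spag6l in 15 of 19, Dcxr in 8 of 19, Mgst3 in 8 of 19, Ak7 in 7 of 19, Gata6 in 9 of 18, Sec14l3 in 5 of 19, Cebpd in 4 of 18 and Ngfr in 5 of 16. The calls of Etv5, Lyz1, Emcn and the muscle genes held in 4 to 12 of their 18 or 19 alternatives, with adjusted p-values up to 0.484. None of these calls of other genes turned. The 2 d medians of xenobiotic oxidation and conjugation stayed below 0 with quantile normalization (-0.40 and -0.24) and with median scaling (-0.42 and -0.26). With 1 or 2 arrays per group, changes within the spread of a pair were not detectable, and signals near the floor, as for Cbr2, have little range below them.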

Other observations

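A further A probe set, 162044_f_at, was annotated to both Cyp4b1 and Cyp4b1-ps2 and was left out of the counts. Its intensity was 2148 in Norm, 1902 and 2024 at 10 h, 1831 and 2587 at 2 d, 1592 and 2518 at 4 d, and 1820 and 1684 at 6 d. The 4 d arrays spanned nearly the whole range of the other groups, and both 6 d arrays lay below the Norm array.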
